A study of Mus musculus with 36 samples.

Results

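The proteasome genes were taken as every symbol that starts with Psma, Psmb, Psmc, Psmd, Psme, Psmf or Psmg and a number, without the annotated pseudogenes. The rule gave 51 genes among the 40205 features of the count tables. By their known roles they comprise 8 alpha and 7 beta genes of the 20S core particle, 4 beta genes of the immunoproteasome and thymoproteasome, 6 ATPase and 11 non-ATPase genes of the 19S regulatory particle, 3 assembly chaperones of the 19S particle, 4 assembly chaperones of the 20S core, and 5 activators or inhibitors. The remaining 3 (Psmc3ip, Psme3ip1 and Psme2b) match by name, but Psmc3ip and Psme3ip1 are named for partners of subunits and Psme2b is a single-exon relative of Psme2, and they were kept apart as not subunits.

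The proteasome degrades proteins that carry ubiquitin chains. Its barrel-shaped 20S core is built of alpha and beta rings, and Psmb5, Psmb6 and Psmb7 are the constitutive beta subunits that cut peptide bonds. The 19S particle caps the barrel: its non-ATPase subunits bind and deubiquitinate substrates, and its ATPase ring unfolds them and threads them into the core. Interferon exchanges the constitutive catalytic subunits for Psmb8, Psmb9 and Psmb10, and all of these genes are coded in the nucleus and translated in the cytosol, where a cell needs the subunits in fixed proportions.

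RNA had been sequenced from neurosphere cultures of neural stem cells (NSCs) and from the extracellular vesicles (EVs) in their medium. The cultures were derived from the dorsal telencephalon of C57BL/6J fetuses at gestational day 12.5, labelled wild type, although the study's methods name the Ai14 line of that strain. Fetuses of each sex were pooled within each of 3 pregnancies (sets 3, 4 and 5), so 3 female and 3 male cultures stand for 6 biological replicates, each grown without serum between passages 7 and 10. Every culture was split over 0 (control), 120 (moderate) and 320 mg/dL (high) ethanol for 5 days. Each culture and dose then gave 1 cell library and 1 EV library, the latter from the pellet of an ultracentrifugation, so 18 EV and 18 cell libraries fall into 12 conditions of 3.

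Totals ranged from 0.959 to 5.51 M counts in EVs (M stands for 1000 times 1000) and from 26.6 to 55.3 M counts in cells, and the 51 genes held 447 to 6168 counts in an EV library against 60831 to 189189 in a cell library. Levels are given as CPM, counts per M counts of the library after scaling by TMM (trimmed mean of M values) factors, while shares of counts are unscaled. Of 10 NSC markers, 9 had a mean above 1 CPM in both kinds of library, while Sox2 was listed at 0 in all 36. Their summed level was 892 to 1334 CPM in EVs and 2601 to 4160 CPM in cells. Markers of microglia summed to 0 to 12.1 CPM and 0.335 to 0.674 CPM, those of endothelium to 1.51 to 20.4 and 0.634 to 2.26 CPM, and those of red blood cells to 0 to 1.70 and 0 to 0.0787 CPM. Neuronal markers summed to 18.8 to 119 CPM in EVs and 15.1 to 132 CPM in cells, those of the oligodendrocyte lineage to 217 to 431 and 296 to 587 CPM, and those of astrocytes to 37.7 to 222 and 46.8 to 410 CPM. The part of these other cell types in the results was not tested.

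The first comparison asks whether proteasome mRNAs are found in EVs in the proportion in which the parent cells hold them. They were scarcer in EVs. The 51 genes took 0.0289% to 0.113% of all counts of an EV library (median 0.0775%, n = 18) and 0.227% to 0.394% of a cell library (median 0.269%, n = 18), so the 2 ranges did not overlap. CPM give a share of each library, so fewer copies of a transcript per EV and more of other RNA around it cannot be told apart, as fewer cells of a type and less RNA per cell cannot in cells.

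Of the 46 genes with enough counts to test, 42 were lower in EVs, 2 were higher and 2 did not pass the threshold (edgeR's quasi-likelihood test with terms for sex and dose, Benjamini-Hochberg adjusted p under 0.05). The test took libraries of a culture at different doses as independent, so its p-values rest on more units than the 6 cultures. Among all 15281 genes tested, 80.5% were called, 42.2% as lower and 38.4% as higher in EVs, and at unadjusted p under 0.05 the counts were 44 of 46 and 81.3%. The median log2 fold change of EV over cell was -1.32 over the 46 proteasome genes and -0.08 over all genes tested. All 18 EV libraries lay below all 18 cell libraries for 23 of the 46, against 14.8% of all genes tested, and 0 of the 46 had all EV libraries above all cell libraries, against 9.04%. In all 6 cultures 34 of the 46 were lower in EVs, against 34.8% of all genes, and 2 were higher, against 26%. Scaling by library totals moved the median of all genes to -0.88 and that of the proteasome genes to -2.13. With that scaling 44 were called lower and 0 higher, but it moves all genes down together, so these counts do not set the proteasome genes apart. The other 5 genes had too few counts in both kinds of library to be tested.

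**Figure D1:**
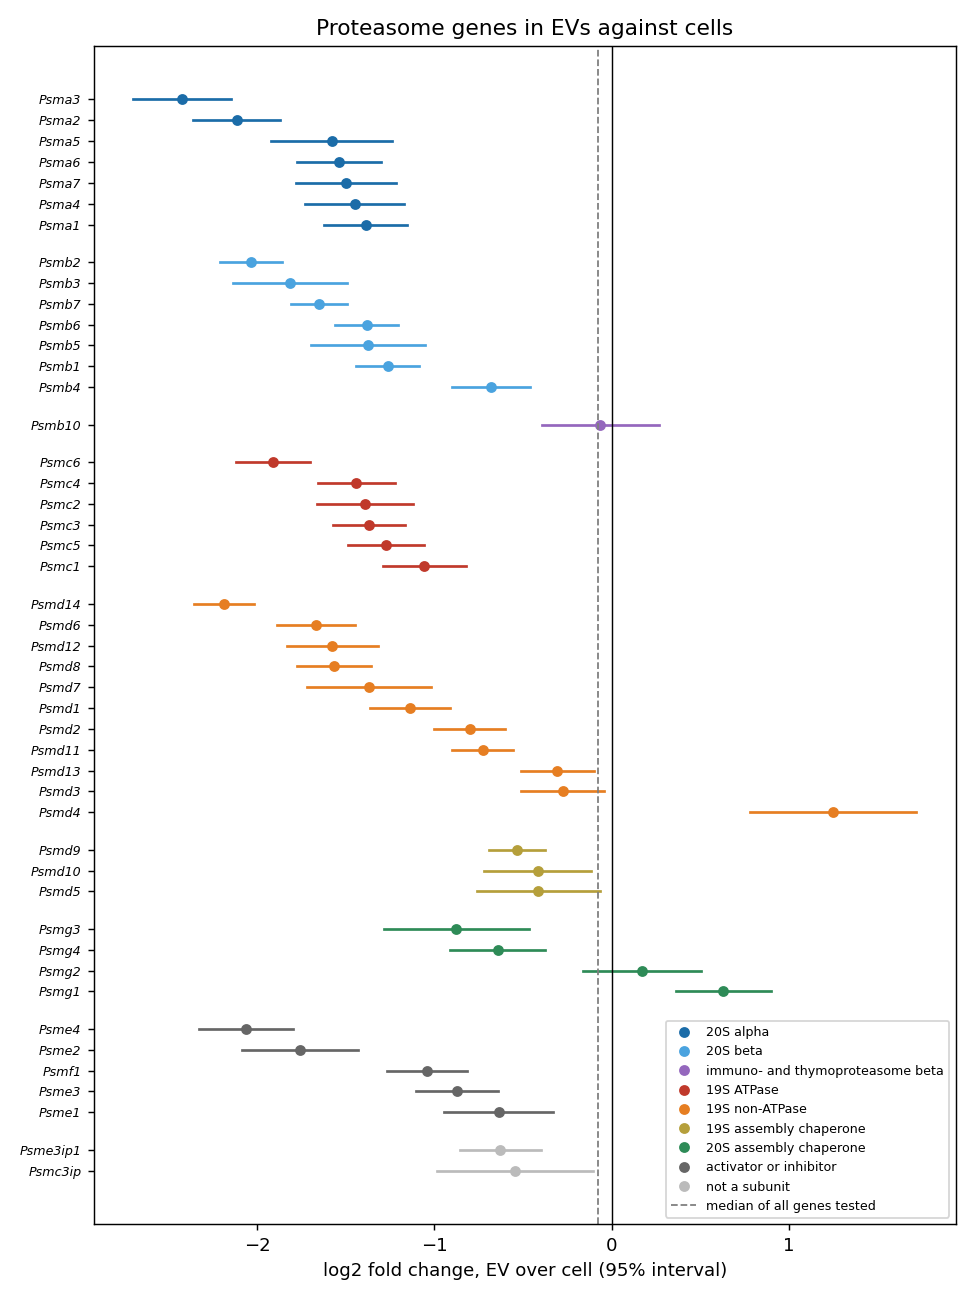
Log2 fold change of EV over cell (x axis) for the 46 proteasome genes tested, grouped by role, each with its 95% interval from edgeR over 36 libraries. All 14 tested 20S core genes and 16 of 17 genes of the 19S particle lie left of 0, Psmd4 lies at 1.25 on the right, and the dashed line marks the median of all 15281 genes tested (-0.08).

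All 14 tested genes of the 20S core were lower in EVs. Their log2 fold changes ran from -2.42 to -0.68 around a median of -1.52, and the standard errors (SE) ran from 0.08 to 0.17. In the alpha ring, which gates the entrance of the barrel, the median was -1.54 over 7 genes. Psma3 had the largest decrease of all tested members, with 1.66 to 12 CPM in EVs (median 6.63) and 27.3 to 46.7 CPM in cells (median 37.1), and it fell by 2.42 on the log2 scale (SE 0.14, edgeR adjusted p = 4.41e-18). No EV library reached the lowest cell library. Psma3 has near-identical copies elsewhere in the genome, so its value and rank are uncertain. Psma1 changed least in the ring, from a median of 53.9 CPM in cells (range 37.5 to 85.6) to 21.7 CPM in EVs (range 15.3 to 29.9), or -1.39 (SE 0.12, edgeR adjusted p = 2.04e-13).

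In the beta ring the median was -1.38 over 7 genes. Psmb2, a structural subunit, had the largest decrease, from 39.0 to 58.0 CPM in cells (median 44.5) to 8.87 to 18.7 CPM in EVs (median 10.9), which was a change of -2.03 (SE 0.09, edgeR adjusted p = 1.34e-21). Psmb4, another structural subunit, had the smallest. It stood at 50.6 to 93.3 CPM in cells (median 68.3) and 23.8 to 61.9 CPM in EVs (median 45.0), and 12 of its 18 EV libraries lay below the lowest cell library while 6 lay within the cells' range (-0.68, SE 0.11, edgeR adjusted p = 5.43e-07).

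The 3 constitutive catalytic subunits were all lower in EVs. Psmb5, the chymotrypsin-like subunit that proteasome inhibitor drugs bind, had 1.67 to 11.6 CPM in EVs (median 4.31, from 1 to 22 counts) and 8.46 to 18.8 CPM in cells (median 11), with 1 EV library inside the cells' range. Its log2 fold change was -1.37 (SE 0.16, edgeR adjusted p = 7.8e-10). Psmb6, the caspase-like subunit, had 13.6 to 28.2 CPM in EVs (median 22.5) and 39.1 to 86.0 CPM in cells (median 59), a change of -1.38 (SE 0.09, edgeR adjusted p = 1.52e-16). Psmb7, the trypsin-like subunit, had 20.4 to 34.4 CPM in EVs (median 25.4) and 69.3 to 104 CPM in cells (median 79.4), a change of -1.65 (SE 0.08, edgeR adjusted p = 3.36e-20). For Psmb6 and Psmb7 the EV and cell libraries did not overlap.

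On GRCm39, Psmb5 lies at chr14:54850776-54855481 on the minus strand, Psmb6 at chr11:70416183-70418684 on the plus strand and Psmb7 at chr2:38478044-38534099 on the minus strand. A known regulator of proteasome genes, NFE2L1, binds antioxidant response elements, whose core can be written TGACNNNGC. RefSeq promoter windows (GRCm38.p6, 250 bases before to 50 after the start) were at hand for 43 of the 51 genes, and 6 of the 43 (14%) held these letters on either strand, as did 14% of all 27025 windows. In 11 windows of 20S core genes the count was 2 and in 14 windows of 19S genes it was 2. The longer form TGACTCAGC, whose matches are all matches of TGACNNNGC too, was in 0 of the 43 and in 0.503% of all windows, and CCAAT, the letters of the box that NF-Y binds, was in 37.2% of the 43 and 41.1% of all. All 14 tested core genes were lower in EVs, with or without a match. The stretches of the 2 core genes with a match are shown because both code for catalytic subunits. The match is in capitals, and the stretches lie at chr14:54618024-54618082 (minus strand) and chr11:70525308-70525356 (plus strand) of GRCm38.p6.
Psmb5: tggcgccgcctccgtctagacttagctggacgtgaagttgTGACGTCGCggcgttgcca
Psmb6: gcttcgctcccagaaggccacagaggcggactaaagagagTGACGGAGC
A match of letters is no measured site, and the rest of the members' windows say only that they lack these letters.

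Of the interferon-induced catalytic subunits, Psmb8 and Psmb9 had few counts. Psmb8 ranged from 0 to 2 counts per EV library (0 to 1.11 CPM) and from 0 to 33 per cell library (0 to 0.581 CPM), and Psmb9 from 0 to 5 and from 3 to 17 counts. Psmb11, the subunit of the thymoproteasome, had 1 count in all 18 EV libraries together and 33 in all 18 cell libraries. None of these 3 was tested, and a difference was not detectable at this depth. Psmb10, the third inducible subunit, had 0 to 10.3 CPM in EVs (median 5.34) and 3.82 to 7.59 CPM in cells (median 5.42). Unlike the constitutive catalytic subunits it did not pass the test, at -0.06 (SE 0.16, 95% interval -0.39 to 0.26, edgeR adjusted p = 0.825), and its EV libraries spread on both sides of the cells' range, 5 below and 4 above it. It lay 0.01 from the median of all genes with TMM and 0.03 with library totals, which move all genes together and gave -0.85 (edgeR adjusted p = 2e-04), and with no filter on low counts it was -0.67 (edgeR adjusted p = 0.000847). The difference between Psmb10 and the other catalytic subunits was not tested.

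Psma8, the alpha subunit of the testis-specific proteasome, was rare in both kinds of library and was not tested. It had 0 to 16 counts in EV libraries (0 to 6.70 CPM, median 3.09) and 0 to 9 counts in cell libraries (0 to 0.202 CPM, median 0.0795). In CPM, 17 of the 18 EV libraries lay above the highest cell library, from 118 counts in all EV libraries and 73 in all cell libraries.

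The ATPase ring of the 19S particle was lower in EVs throughout. The 6 genes had a median of -1.38 and ranged from -1.91 to -1.06, with SE between 0.10 and 0.13, and for each of them every EV library lay below every cell library. Psmc6 fell furthest, from 96.1 to 173 CPM in cells (median 133) to 15.3 to 45.7 CPM in EVs (median 36), a change of -1.91 (SE 0.10, edgeR adjusted p = 1.6e-18). Psmc1 fell least, from a median of 61.7 CPM (47.8 to 88.0) to 30.9 CPM (15.3 to 44.0), a change of -1.06 (SE 0.12, edgeR adjusted p = 2.06e-10).

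The 11 non-ATPase genes of the 19S particle were the most unequal group. They ran from -2.18 to 1.25 around a median of -1.14, and 10 were called lower and 1 higher. Psmd14, the deubiquitinase that removes the ubiquitin chain, stood at 83.1 to 109 CPM in cells (median 99.2) and at 15.8 to 29.6 CPM in EVs (median 20.2), which was 4.54-fold lower (log2 -2.18, SE 0.08, edgeR adjusted p = 8.09e-23). At the other end, the scaffold subunit Psmd3 changed by -0.28 (SE 0.12, edgeR adjusted p = 0.0281), from 23.9 to 43.9 CPM in cells to 17.0 to 44.6 CPM in EVs, and 10 of its EV libraries lay inside the cells' range. Its call was lost with the culture-and-dose pair as a block (edgeR adjusted p = 0.0504), by DESeq2 (0.0818), and without set 3 (0.34) or set 4 (0.446), and it turned to 0.21 with every library thinned to the smallest total.

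Psmd4, which codes for a ubiquitin receptor of the 19S particle (chr3:94937765-94949925, minus strand, GRCm39), was the only tested subunit of the 20S and 19S particles called higher in EVs. In cells it ranged from 43.8 to 72.7 CPM (median 58.1). Its EV libraries held 32.2 to 581 CPM (median 115), and 15 of 18 lay above the highest cell library, 2 below the lowest and 1 between. The control EV library of the male culture of set 5 held 581 CPM, from 2472 counts, while the other 5 control EV libraries held 77.0 to 245 CPM. The 2 other EV libraries of that culture were the lowest of all, at 38.2 CPM (120 mg/dL) and 32.2 CPM (320 mg/dL). The log2 fold change was 1.25 (SE 0.23, edgeR adjusted p = 8.67e-06). By the mean over doses EVs were higher in 6 of 6 cultures, but in the male culture of set 5 only through its control library. The change was 0.79 (SE 0.18, edgeR adjusted p = 0.000155) without that control library, left out after the data were seen. Scaled by library totals in place of TMM factors the change was 0.41 (edgeR adjusted p = 0.09), and relative to the median of all genes it was 1.33 with TMM and 1.29 with totals.

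**Figure D2:**
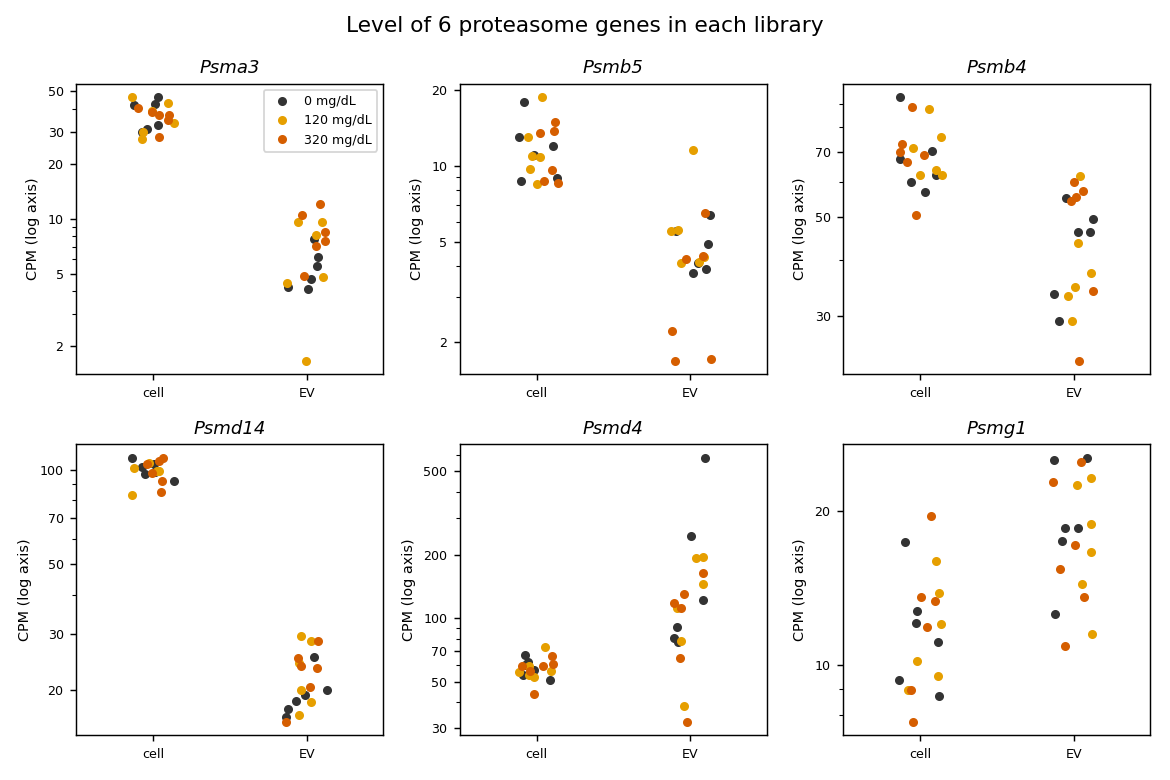
CPM (log axes, 1 panel per gene) of 6 proteasome genes in the 18 cell and 18 EV libraries, coloured by ethanol dose. Psma3 and Psmd14 show no overlap between cell and EV, Psmb5 overlaps in 1 EV library and Psmb4 in 6, and Psmd4 spreads from 32.2 to 581 CPM in EVs against 43.8 to 72.7 CPM in cells.

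The assembly chaperones, which guide subunits together and leave the finished particle, differed in direction between genes. The 3 chaperones of the 19S base (Psmd5, Psmd9 and Psmd10) were each called lower, with a median of -0.42. Psmd9 had 7.16 to 13.3 CPM in EVs (median 10.2) and 12.2 to 17.6 CPM in cells (median 15.2), a change of -0.54 (SE 0.08, edgeR adjusted p = 1.17e-07). Psmd5 had 12.5 to 34.8 CPM in EVs and 16.5 to 51.9 CPM in cells, and its change of -0.41 (SE 0.17, edgeR adjusted p = 0.0269) had an adjusted p of 0.0518 with the culture-and-dose pair as a block and was -0.08 (adjusted p = 0.695) without set 3.

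Among the 4 chaperones of the 20S core, which pair alpha subunits into rings, 2 were lower, 1 higher and 1 not called. Psmg1 was higher in EVs, at 10.9 to 25.4 CPM (median 18) against 7.76 to 19.6 CPM in cells (median 12), in 6 of 6 cultures (0.63, SE 0.13, edgeR adjusted p = 5.32e-05). With library totals it was -0.18 (edgeR adjusted p = 0.276), but relative to the median of all genes it was 0.71 higher with TMM and 0.70 higher with totals. With no filter on low counts it was 0.01 (edgeR adjusted p = 0.935). Psmg2, its partner, was 0.17 (SE 0.16, 95% interval -0.16 to 0.50, adjusted p = 0.338) by edgeR and relative to the median of all genes it was 0.25 with TMM and 0.25 with library totals. Psmg3 had the lowest value, -0.88 (SE 0.20, edgeR adjusted p = 0.000169), from 1 to 21 counts per EV library.

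The 5 activators and inhibitors were each called lower, and their median was -1.04. Psme4, the PA200 activator, was at 69.8 to 206 CPM in cells (median 105) and 19.4 to 45.8 CPM in EVs (median 27.9), without overlap, or 4.18-fold lower (log2 -2.06, SE 0.13, edgeR adjusted p = 1.54e-16). Psme1, a subunit of the PA28 activator that acts with the immunoproteasome, changed least (-0.64, SE 0.15, edgeR adjusted p = 0.000248), at 1.03 to 9.21 CPM in EVs and 6.30 to 11 CPM in cells. Of the genes that match by name only, Psme3ip1 changed by -0.63 (SE 0.11, edgeR adjusted p = 4.46e-06) and Psmc3ip by -0.55 (SE 0.22, adjusted p = 0.0215). Psmc3ip was lower in 3 of 6 cultures and had an adjusted p of 0.0895 with the culture-and-dose pair as a block, and without set 3 it changed by 0.0012 (0.995). Psme2b ranged from 0 to 1 counts per EV library and from 5 to 17 per cell library.

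Subunits differ in how safely their reads can be placed. The coding sequence of 12 of the 51 genes has a copy of at least 95% identity over at least 150 bases elsewhere in GRCm39, among them Psma3 (99.9%), Psmb5 (99.0%) and Psme2 (99.2%), and reads could have been split between copies, so their values are uncertain. Exons of 27 genes overlap those of another gene in GENCODE, for 24 of them on the opposite strand. Psmb7 shares 2817 bases with Nek6, Psmb4 shares 306 with Pogz, and Psmd4 overlaps 3 lncRNAs, all on the opposite strand. The libraries were stranded, but how the counting used strand is not given in the sources used here, so reads of opposite partners may not be told apart.

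Within the complex, levels were compared per kilobase of coding sequence. In cells the 14 tested core genes ran from 14.9 (Psmb5) to 101 CPM per kb (Psmb1), with a median of 74.7, and the 17 genes of the 19S particle from 18.3 (Psmd3) to 113 (Psmc6), with a median of 40.3. In EVs the core ran from 5.92 (Psmb5) to 52.0 (Psmb4) and the 19S genes from 11.1 (Psmd12) to 116 (Psmd4). The SD of the log2 level across genes was 0.74 in cells and 0.89 in EVs for the core, and 0.62 and 0.76 for the 19S genes. Counts per kb of coding sequence were thus uneven across subunits in both kinds of library. The division leaves out untranslated exons, and Psmb5, lowest of the core in both, has a near-identical copy elsewhere. Proportions of the mRNAs themselves were therefore not measured.

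**Figure D3:**
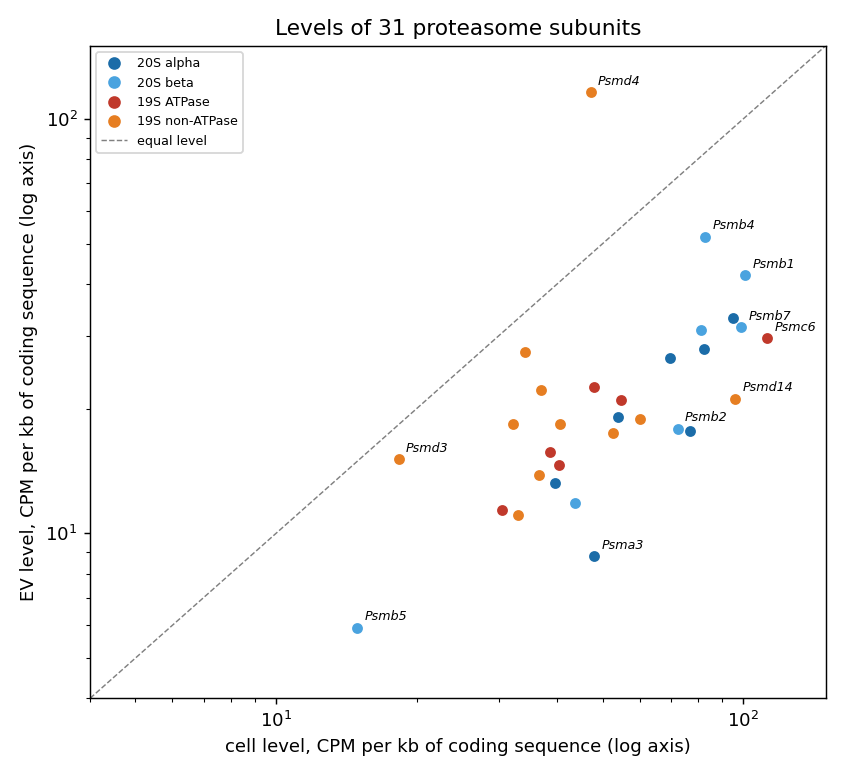
Mean EV level against mean cell level of 31 subunits, in CPM per kb of coding sequence on log axes, coloured by subunit class, with the line of equal level. Psmd4 (47.2 in cells, 116 in EVs) lies above the line, Psmd3 (18.3 and 15.1) just below it, and Psma3 (48.0 and 8.80) furthest below.

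Across the 31 subunits, EV and cell levels per kb correlated with Pearson's r = 0.59 and Spearman's rho = 0.67. The log2 fold change of EV over cell ran with log2 coding length (r = 0.41, rho = 0.53) and less with genomic length (r = -0.20, rho = -0.21) or cell CPM (r = -0.03, rho = -0.00). These are descriptions over genes that share libraries and scaling, and genes are not independent replicates.

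The core was then set against the regulatory particle. Summed 20S genes took 200 to 324 CPM in EVs (median 268) and 553 to 1092 CPM in cells (median 702), and summed 19S genes took 409 to 995 CPM in EVs (median 550) and 901 to 1429 CPM in cells (median 1117). The log2 ratio of 20S to 19S counts was -1.96 to -0.67 in EV libraries (mean -1.08 ± 0.31, SD, n = 18) and -0.81 to -0.32 in cell libraries (mean -0.59 ± 0.12, SD, n = 18). EVs were lower than cells in 6 of 6 cultures, by -0.74 to -0.29, with a mean of -0.48 (SD 0.17, n = 6).

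Psmd4 alone made up 5.38% to 58.4% of the 19S counts of an EV library (median 21.5%) and 4.86% to 6.08% of a cell library (median 5.16%). Without it the ratio was -0.68 ± 0.17 (SD) in EVs and -0.52 ± 0.12 in cells, and the difference was -0.17 (SD 0.12), with 5 of 6 cultures lower and the male culture of set 4 at 0.03. With the mean log2 CPM of each class in place of sums the difference was -0.08, and with Psma8 left out of that mean it was -0.46. With both Psma8 and Psmd4 left out it was -0.33, lower in 6 of 6 cultures (-0.53 to -0.12). The class medians of the log2 fold change were -1.52 for the core and -1.37 for the 19S particle, and the ranges of their genes overlapped. No test was made of these summary values.

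**Figure D4:**
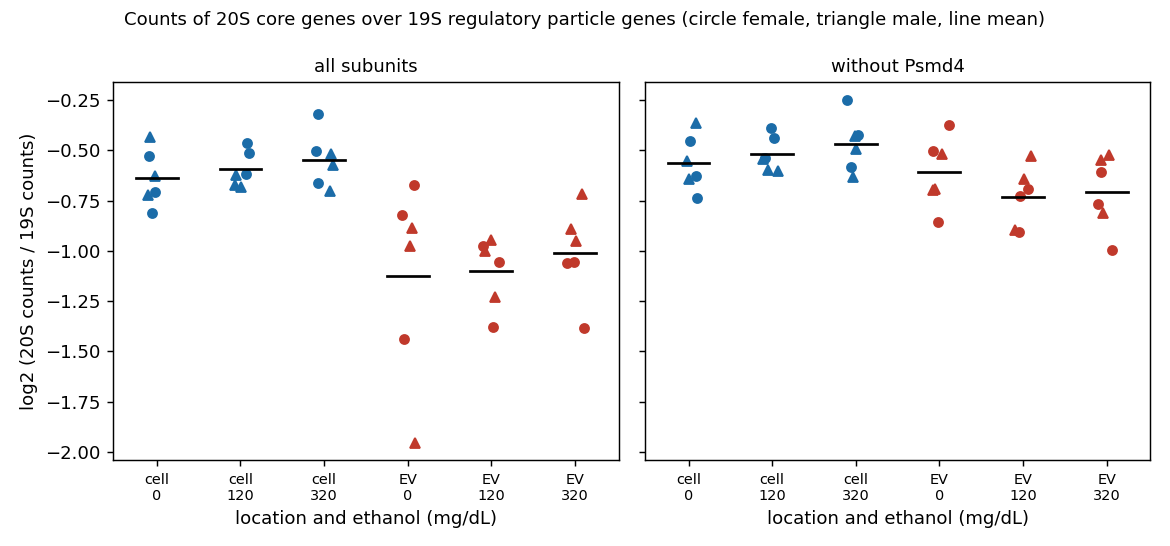
Log2 ratio of summed 20S to summed 19S counts (y axis) in each library by location and ethanol dose, with all subunits (left) and without Psmd4 (right). Circles are female and triangles male cultures and lines are means of 6. With all subunits the EV libraries lie between -1.96 and -0.67 and the cell libraries between -0.81 and -0.32, and without Psmd4 the 2 groups overlap further.

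Ethanol was the second question. No proteasome gene was called at either dose in EVs or in cells by edgeR's quasi-likelihood test with the culture as a block. DESeq2 called none either, although in EVs it gave an adjusted p for only 17 of the genes at 120 mg/dL and 22 at 320 mg/dL. Few genes were called at all: 0.00842% of 11880 in EVs at 120 mg/dL, 0.0842% at 320 mg/dL (0.0673% lower and 0.0168% higher), 0% of 17792 in cells at 120 mg/dL and 0.0393% at 320 mg/dL (0.0169% lower and 0.0225% higher). At unadjusted p under 0.05 there were 2 of 45 proteasome genes in EVs at 120 mg/dL (6.26% of all genes), 5 of 45 at 320 mg/dL (11.9% of all genes), 0 of 48 in cells at 120 mg/dL (2.5%) and 1 of 48 at 320 mg/dL (8.57%).

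In EVs at 320 mg/dL the median log2 difference from control was 0.14 over 45 proteasome genes and 0.01 over all genes. Of the 45, 30 lay above 0, while 48.2% of all genes tested lay below 0. The median was 0.08 for the core (9 of 14 above 0) and 0.20 for the 19S particle (15 of 17 above 0, all 6 ATPase genes among them). These genes share libraries and scaling and are not independent replicates. At 120 mg/dL the medians were 0.03 over the 45, 0.01 for the core and 0.14 for the 19S genes. With library totals the medians at 320 mg/dL were -0.10 over the proteasome genes and -0.24 over all genes, so the proteasome genes less all genes gave 0.13 with TMM and 0.14 with totals. The 2 doses share their control libraries. In cells the medians were -0.01 at 120 mg/dL and -0.02 at 320 mg/dL over 48 genes, with the core at 0.03 and the 19S particle at -0.02 at the higher dose.

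**Figure D5:**
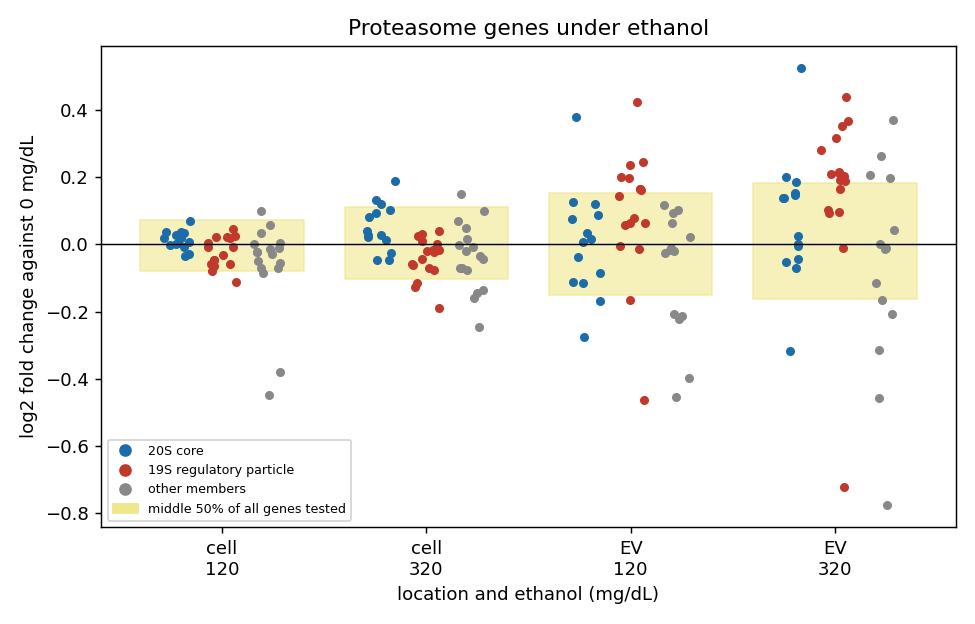
Log2 fold change against 0 mg/dL (y axis) of each tested proteasome gene at 120 and 320 mg/dL ethanol in cells and in EVs, with 20S core, 19S and other members side by side. Shaded boxes hold the middle 50% of all genes tested, and none of the points passed the adjusted threshold.

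The genes with the smallest adjusted p at 320 mg/dL in EVs were Psmd3, Psmb10 and Psmg2. Psmd3 had 17.3 to 31 CPM in the 6 control EV libraries (median 22.4) and 17.0 to 44.6 CPM in the 6 at 320 mg/dL (median 30.5), a difference of 0.35 (SE 0.12, edgeR adjusted p = 0.255). Psmb10 had 3.15 to 10.3 CPM at 0 mg/dL (median 5.74), 4.36 to 8.30 CPM at 120 mg/dL (median 6.40) and 0 to 6.01 CPM at 320 mg/dL (median 3.18), where it rests on 0 to 16 counts (-0.78, SE 0.28, edgeR adjusted p = 0.265). Psmg2 had a median of 23.4 CPM at 0 mg/dL and 18.1 CPM at 320 mg/dL (-0.46, SE 0.17, edgeR adjusted p = 0.277). The ranges of the 2 doses overlapped for each of them.

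At 120 mg/dL in EVs the smallest edgeR adjusted p belonged to Psmg2 (-0.45, SE 0.17, adjusted p = 0.791), Psmd7 (0.43, SE 0.19, adjusted p = 0.791) and Psmc4 (0.25, SE 0.12, adjusted p = 0.794). Relative to the median of all genes Psmc4 was 0.26 with TMM and 0.25 with library totals. Psmd7, the partner of Psmd14, had medians of 9.36, 12.3 and 13.7 CPM at 0, 120 and 320 mg/dL, with the lowest library at 4.11, 8.73 and 8.49 CPM. In cells at 320 mg/dL Psmc5 had the smallest edgeR adjusted p (-0.19, SE 0.07, adjusted p = 0.424), at 39.1 to 60.3 CPM in controls (median 49.2) and 33.0 to 51.6 CPM at 320 mg/dL (median 45.0), followed by Psmc4 (-0.12, adjusted p = 0.656) and Psmd3 (-0.13, adjusted p = 0.712). In cells at 120 mg/dL no adjusted p was below 1, and the 3 genes with the smallest unadjusted p were Psmd3 (-0.11, SE 0.08), Psme2b (-0.38, SE 0.28) and Psme3ip1 (-0.07, SE 0.05).

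None of the catalytic subunits was called. In cells at 320 mg/dL the log2 differences from control were -0.04 for Psmb5 (95% interval -0.31 to 0.22), -0.03 for Psmb6 (-0.27 to 0.22) and 0.02 for Psmb7 (-0.14 to 0.18). In EVs at the same dose they were -0.32 for Psmb5 (-0.96 to 0.32), -0.00 for Psmb6 (-0.26 to 0.25) and 0.15 for Psmb7 (-0.13 to 0.42). Psmb5 had 1 to 22 counts per EV library at that dose and 344 to 872 per cell library. Psmd4 in EVs was -0.72 (SE 0.57, 95% interval -1.93 to 0.49, edgeR adjusted p = 0.692) at 320 mg/dL, against controls that include the library at 581 CPM.

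The high and moderate doses were also set against each other, with 0% of genes called in EVs and in cells and 0 proteasome genes called by edgeR or by DESeq2. At unadjusted p under 0.05 there were 2 in EVs (3.69% of all genes) and 0 in cells (3.56% of all genes). In EVs the smallest p belonged to Psmb10 (-0.88, SE 0.28), Psmf1, an inhibitor of the 20S core (0.59, SE 0.21), and Psmb4 (0.25, SE 0.12), and in cells to Psmc5 (-0.11, SE 0.07), Psmd11 (0.10, SE 0.07) and Psmb10 (-0.15, SE 0.12), all with adjusted p = 1.

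Whether ethanol moved EVs and cells differently was tested as an interaction, and no gene was called at either dose (0% of 15281), so neither were proteasome genes. At unadjusted p under 0.05 there were 1 of 46 at 120 mg/dL (3.43% of all genes) and 6 of 46 at 320 mg/dL (6.54% of all genes). At 320 mg/dL Psmd3 had the smallest p, with an EV-to-cell ratio 0.47 higher on the log2 scale than in controls (SE 0.15, edgeR adjusted p = 0.545), then Psmc4 (0.42, adjusted p = 0.63) and Psmd7 (0.56, adjusted p = 0.634). At 120 mg/dL the 3 were Psmd7 (0.49, SE 0.21), Psmg2 (-0.44, SE 0.22) and Psmc4 (0.30, SE 0.16), all with adjusted p = 1.

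The ratio of core to regulatory particle differed between doses by less than its spread between cultures. In EVs the log2 ratio differed from control by 0.03 ± 0.48 (SD, n = 6) at 120 mg/dL and 0.11 ± 0.52 at 320 mg/dL, with 2 and 3 of 6 cultures higher. Both means rest on the male culture of set 5, whose control EV library held 581 CPM of Psmd4: without that culture they were -0.16 ± 0.17 and -0.08 ± 0.25 (SD, n = 5), and without Psmd4 they were -0.13 ± 0.15 and -0.10 ± 0.18 (SD, n = 6), with 5 of 6 cultures lower at each dose. These omissions were chosen after the data were seen. In cells it differed by 0.04 ± 0.17 and 0.09 ± 0.23, with 5 and 4 of 6 higher.

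Few proteasome genes were called between female and male cultures, and with counts summed to 3 cultures a side few genes were called at all. In EVs 1 of 44 was called (background 11.1% of 11037 genes, 4.06% lower and 7.03% higher in females; 7 of 44 against 31.1% at unadjusted p under 0.05). Psmb4 was lower in females, at 23.8 to 55.6 CPM in the 9 female libraries (median 33.6) and 34.8 to 61.9 CPM in the 9 male ones (median 54.4), with the groups overlapping (-0.44, SE 0.14, edgeR adjusted p = 0.0462). The 9 libraries of a sex come from 3 cultures at 3 doses and were taken as independent. Counts summed over doses, 3 cultures a side, called 0 of 47 proteasome genes and 0 of all 14847 genes. For Psmb4 that fit gave an edgeR adjusted p = 0.334, and leaving out set 4 or set 5 from the fit on single libraries gave 0.329 and 0.312. A fit with the pregnancy as a block pairs a female and a male culture of 1 pregnancy, but still takes the doses of a culture as independent. There 7 of 44 were called, against 27.1% of all genes in that fit: Psmb4, Psmd5, Psmd13 and Psmf1 lower and Psmc2, Psmd6 and Psme4 higher in females. Without set 3 it was 5 of 45, all lower in females, against 23.1% of all genes.

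In cells 0 of 47 were called by sex (background 5.83% of 17052 genes, 2.63% lower and 3.2% higher in females, and 2 of 47 against 22.3% at unadjusted p under 0.05). DESeq2 called Psmf1, against 9.91% of all genes in that fit. Counts summed over doses called 0 of 50, against 0.0334% of all 20972 genes. The smallest adjusted p in the main fit was that of Psme4 (-0.52, SE 0.19, edgeR adjusted p = 0.104), then Psmf1 (-0.22, SE 0.09, adjusted p = 0.145) and Psmc2 (0.24, SE 0.11, adjusted p = 0.227). With the pregnancy as a block 3 of 47 were called (17.3% of all genes), Psme4 lower and Psmc2 and Psmg3 higher in females, and without set 3 there were 5 of 47 (12.3% of all genes), Psme4 lower and Psmg1, Psmg2, Psmg3 and Psmc3ip higher. For Psme4 the blocked value was -0.47 in cells and 0.35 in EVs. The difference between these was not tested.

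Other genes of the ubiquitin-proteasome pathway were read beside the members. Of 31 listed, 30 were found by symbol and tested, and 21 were lower and 4 higher in EVs, with a median of -1.06, so 83.3% were called beside 80.5% of all genes. Sem1 and Adrm1, further 19S subunits outside the naming rule, were lower (-1.59, SE 0.11, and -1.57, SE 0.21), as were the core chaperone Pomp (-1.10, SE 0.12) and the proteasome deubiquitinase Usp14 (-2.04, SE 0.13). Nfe2l1 and Nfe2l2, transcription factors that act on proteasome genes, were lower by different amounts (-0.38, SE 0.12, and -1.80, SE 0.20). The 4 higher in EVs were Ube3c (5.82, SE 0.31), Ddi2 (1.32, SE 0.14), Ubqln2 (0.86, SE 0.11) and Nploc4 (0.85, SE 0.11). Ube3c, a ubiquitin ligase of the proteasome, stood far from the others with a mean of 8744 CPM (SD 4956) over the EV libraries and 159 CPM (SD 138) over the cell libraries. Whether the reads at this locus come from Ube3c mRNA was not tested. None of the 30 was called for ethanol by edgeR, with 2 of 30 at unadjusted p under 0.05 in EVs at each dose, beside 6.26% of all genes at 120 mg/dL and 11.9% at 320 mg/dL.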

How the data were processed

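RNA counts per gene were compared in 18 EV and 18 cell libraries. Per the labels and methods, the authors trimmed and deduplicated reads, aligned them to mm39 with STAR, counted them per gene with HTSeq and deposited raw counts; the annotation and strand setting are not given in the sources used here. The members and the gene lists were chosen with earlier results of these data known. Every member was counted; those named were the catalytic subunits, the highest and lowest of each class, and, for ethanol and sex, each called gene or the 3 with the smallest adjusted p. Other genes were named after their values were seen.

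Genes passing edgeR's filterByExpr (minimum count 10, minimum total 15) were scaled by TMM and tested with edgeR's quasi-likelihood test (edgeR 4.0.16, limma 3.58.1, R 4.3.3; Benjamini-Hochberg adjusted p under 0.05), first on simulated data. EV against cell had terms for sex and dose and took the libraries of a culture as independent. Ethanol had the culture as a block, and the interaction was tested over both kinds of library. DESeq2 1.42.0, other scalings, no filter, thinning, summed doses, omitted sets and the pairing block were alternatives; leaving out 1 EV library, those under 2 M counts, the male culture of set 5, Psmd4 or Psma8 was chosen after seeing the data. Copies were searched with minimap2 2.31, and figures drawn with matplotlib 3.10.9 in Python 3.11.15. All intervals are 95%.

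Libraries of 1 culture, or of 1 pregnancy, are paired by the labels. Deviations from the group means correlated with a median r of 0.191 and 0.21 between EV libraries of a culture at 120 or 320 mg/dL and at 0, 0.715 and 0.621 in cells, 0.0719 between EVs and cells of the same culture at the same dose, and 0.106 in EVs and 0.376 in cells between the sexes of a pregnancy.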

Additional observations from a re-analysis of the deposited data

Results flagged for a closer look

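In 138 groups of 6 libraries of 1 location and dose, over 22 of the proteasome genes and the ratio of 20S to 19S counts, 13 held a library whose gap to its neighbour exceeded Dixon's critical value of 0.625 of the group's range, where chance gives about 1 in 20 groups. All values are CPM.

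In EVs, Psmd4 stood at 581 in the male control of set 5 against 77.0 to 245 in the others. Psmb2 was at 18.7, from 11 counts, in the female culture of set 4 at 320 mg/dL against 9.36 to 12.8. Psmc6 was at 19.9, from 18 counts, in that culture at 120 mg/dL against 34.8 to 38.6. Psmb5 was at 11.6 in the male culture of set 3 at 120 mg/dL, from 7 counts, against 4.09 to 5.54, and Psmc3ip at 0 in that library against 4.41 to 6.72. Psmc3ip was at 7.19, from 7 counts, in the female control of set 3 against 4.73 to 5.38. Psmb8 was at 0.304, from 1 count, in the male culture of set 4 at 320 mg/dL, and listed at 0 in the others. With the others tied at 0 any count would be flagged, so the chance rate above does not apply to that group.

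In cells, Psmb4 was at 93.3 in the male control of set 3 against 56.9 to 70.4. At 120 mg/dL, Psmc1 was at 86.3 in the female culture of set 3 against 54.3 to 65.7, Psmd4 at 72.7 in that library against 52.7 to 59.6, and Psmd14 at 83.1 in the female culture of set 5 against 99.1 to 105. At 320 mg/dL, Psmd9 was at 12.2 in the male culture of set 5 against 14.7 to 15.5, and Psme1 at 7.56 in the female culture of set 5 against 8.71 to 9.33.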

How the results depend on the processing

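The count of proteasome genes called between EV and cell was 31 of 40 (libraries thinned) to 47 of 51 (no filter), with 41 under the pairing block. The share of all genes called in these alternative fits is not given here, so the counts do not set the proteasome genes apart. The ethanol comparisons gave 0 under every alternative run. The median of these genes less that of all genes was -1.24, and -2.78 by DESeq2 and -2.35 with no filter, where 30942 and 31069 genes entered. The core to 19S difference of -0.48 was -0.079 with mean log2 CPM, -0.17 without Psmd4 and -0.33 with mean log2 CPM without Psma8 and Psmd4. By sex, 1 gene was called in EVs (11.1% of all genes). It was 0 with no filter (6.1% of all genes), library totals (2.84%) or summed doses (0%), and 7 under the pairing block (27.1%). It was 5 without set 3 (23.1%) and 0 without set 4 (3.7%) or set 5 (0.0203%). In cells it was 0 (5.83% of all genes), 1 by DESeq2 (9.91%) and 3 under the block (17.3%). There it was 5 without set 3 (12.3%) and 0 without set 4 (6.4%) or set 5 (1.17%).

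Directions turned for few genes. With library totals this went with a shift of all genes (median -0.08 to -0.88 for EV against cell), and the cause of the others was not tested. Psmb10 was 0.033 by DESeq2, 0.011 with median-of-ratios factors and 0.027 in control libraries alone, and -0.26 to 0.082 over omissions. Psmc3ip was -0.76 to 0.0012 over omissions, the latter without set 3, Psmd3 was 0.21 when thinned and Psmg1 -0.18 with library totals. Psmg2 was -0.44 with no filter, -0.63 with library totals, -0.13 with summed doses and -0.044 to 0.42 over omissions, and Psmc4 at 120 mg/dL in EVs was -0.0089 with library totals. Among the EV against cell values of single genes and counts, 322 kept direction and side, 23 lost and 4 gained the call and 11 reversed. Depth limits EVs most, where 6 libraries hold under 2 M counts.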
